A study of Mus musculus with 12 samples.

Results

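The p53 pathway was examined through 33 genes, namely Trp53 itself, its regulators and genes that p53 is known to switch on directly. The genes were taken by name and matched by symbol to the Ensembl gene identifiers of the deposited tables, and all 33 of them were found among the 48795 genes listed. They were chosen with earlier results of these data known. RNA came from C2C12, mouse muscle precursor cells in culture that form myotubes in low serum, and 12 poly(A)-selected libraries were sequenced, 3 in each of 4 groups. Vehicle libraries received DMSO for 24 h, gRc libraries received 10 µM ginsenoside Rc (gRc, a saponin of ginseng) for 24 h, H2O2 libraries received vehicle for 18 h and then 0.25 mM H2O2 for 6 h, and gRc + H2O2 libraries received 10 µM gRc for 18 h and then 0.25 mM H2O2 for 6 h. A tag on the last group reads 24 h of gRc before H2O2 in place of 18 h. All groups share the differentiation in horse serum and the total time of 24 h, and the H2O2 groups were harvested 6 h after the oxidant, so later changes were not measured. Whether the 3 libraries per group represent separate cultures is not stated in the labels, and the p-values then describe a library-to-library spread that could be technical.

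p53 is a transcription factor that is held at a low level by the ubiquitin ligase MDM2 and accumulates when DNA damage kinases modify it. It then binds response elements near genes for cell cycle arrest, apoptosis, DNA repair and metabolism, and MDM2 is among its own targets, which closes a negative feedback loop. In skeletal muscle cells, oxidants damage DNA and activate p53, while p21, encoded by the p53 target Cdkn1a, is also induced without p53 when myoblasts leave the cell cycle to differentiate.

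The deposited expected counts summed to between 19274762 and 31409066 per library. The cell-type tag reads myoblasts, whereas the growth protocol describes myotubes, and the genes of differentiated muscle were abundant in all groups. The summed level of 12 myotube markers ranged from 18317 to 25980 CPM in vehicle libraries (CPM, counts per 1000000 after TMM scaling, edgeR's trimmed-mean normalization), against 1832 to 3407 CPM for 6 genes listed as markers of undifferentiated myoblasts. Most of the latter sum was Itga7, at 1163 to 2479 CPM, so the sum mainly follows that gene. Pax7 stood at 15.0 to 23.6 CPM and Myf5 at 3.49 to 20.3 CPM in those libraries. The 8 fibroblast-like markers, collagens among them, summed to between 5294 and 35450 CPM in the same libraries, and Lum, one of them, was at most 1.09 CPM in any library. Libraries of a group were not alike: vehicle replicate 1 stood apart from vehicle replicate 3 and gRc replicate 3 on the first principal component, which held 43.1% of the variance, and its genes poor in GC stood lower against GC-rich genes by 0.90 on the log2 scale, while they stood higher by 0.41 and 0.51 in the latter pair. In bulk RNA, fewer cells of a type and less RNA per cell cannot be told apart.

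Per unit of transcript length, Cdkn1a was the most abundant of the 33 genes. Its vehicle level was 2820 ± 1771 TPM (transcripts per 1000000, mean ± SD, n = 3), and its lowest vehicle library, at 1492 TPM, lay above the highest for Gadd45a, the next in order, at 808 TPM. Gadd45a, a growth arrest and DNA damage gene, stood at 595 ± 258 TPM, Phlda3, an inhibitor of AKT signalling, at 292 ± 185 TPM and Mdm2 at 145 ± 69.3 TPM. Trp53 was the seventh in the order at 94.7 ± 18.2 TPM. From Gadd45a down to Plk2 each gene overlapped its neighbour in the order, and a gap without overlap separated Plk2 (67.7 ± 3.48 TPM) from Aen (44.5 ± 8.98 TPM), after which neighbours overlapped again down to Pidd1 at 2.26 ± 0.774 TPM. Perp, a tetraspan membrane protein of apoptosis and desmosomes, was the lowest gene tested, at 0.773 ± 0.254 TPM. Trp73, which encodes the p53 relative p73, had 0 counts in 9 of 12 libraries and at most 3 in any other, and a count of 0 allows up to 0.156 counts per 1000000 in the shallowest library at 0. It failed the filter on low counts, so 32 of the 33 genes were tested.

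To show where the largest responders carry p53-like sequence, the promoter windows of the 4 members with the largest rise with H2O2 are given, with that of Cdkn1a added after its values were seen because its response differed from theirs. The windows are RefSeq promoters on GRCm38.p6, from 250 bases before to 50 bases after an annotated start, 5′ to 3′ on the gene's strand, and capitals mark a match to the p53 decamer consensus, the 10-base unit that occurs as a pair in p53 response elements. The consensus is RRRCWWGYYY, with R for A or G, W for A or T and Y for C or T. Only exact matches were counted, and sequence with any mismatch is left in lower case. The decamer is its own reverse complement, so each match counts for both strands. The windows lie at chr10:117710709-117711008 on the minus strand for Mdm2, chr6:67037358-67037657 on the minus strand for Gadd45a, chr13:110394794-110395093 on the plus strand for Plk2, chr11:120727235-120727534 on the minus strand for Dcxr, and chr17:29090729-29091028 on the plus strand for the upstream start of Cdkn1a.
Mdm2: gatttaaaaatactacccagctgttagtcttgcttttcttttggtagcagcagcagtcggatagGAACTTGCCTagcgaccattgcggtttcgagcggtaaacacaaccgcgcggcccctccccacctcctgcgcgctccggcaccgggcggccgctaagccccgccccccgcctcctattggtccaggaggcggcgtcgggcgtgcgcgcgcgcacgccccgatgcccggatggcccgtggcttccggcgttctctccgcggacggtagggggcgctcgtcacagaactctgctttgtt
Gadd45a: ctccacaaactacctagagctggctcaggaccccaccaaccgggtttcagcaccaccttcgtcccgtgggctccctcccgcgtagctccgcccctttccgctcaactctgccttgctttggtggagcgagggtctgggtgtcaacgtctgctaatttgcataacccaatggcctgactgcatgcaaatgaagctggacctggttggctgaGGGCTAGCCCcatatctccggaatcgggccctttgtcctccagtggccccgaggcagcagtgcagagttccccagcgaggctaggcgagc
Plk2: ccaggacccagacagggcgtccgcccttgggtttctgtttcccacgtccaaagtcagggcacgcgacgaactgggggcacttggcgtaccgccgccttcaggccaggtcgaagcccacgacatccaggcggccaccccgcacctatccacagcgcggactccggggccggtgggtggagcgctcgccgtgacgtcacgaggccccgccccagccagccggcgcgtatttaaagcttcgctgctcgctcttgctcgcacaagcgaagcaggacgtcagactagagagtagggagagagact
Dcxr: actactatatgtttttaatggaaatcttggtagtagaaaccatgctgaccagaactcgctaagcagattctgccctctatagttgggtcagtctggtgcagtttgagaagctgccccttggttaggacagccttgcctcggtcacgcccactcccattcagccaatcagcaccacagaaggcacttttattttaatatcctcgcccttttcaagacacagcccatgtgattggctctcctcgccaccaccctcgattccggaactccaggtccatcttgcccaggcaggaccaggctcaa
Cdkn1a: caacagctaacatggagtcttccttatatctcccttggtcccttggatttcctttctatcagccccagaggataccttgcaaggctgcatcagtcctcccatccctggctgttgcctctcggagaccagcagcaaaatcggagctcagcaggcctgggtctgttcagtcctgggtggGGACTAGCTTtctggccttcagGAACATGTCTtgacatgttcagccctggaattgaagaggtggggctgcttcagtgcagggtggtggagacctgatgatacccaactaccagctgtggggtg

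The Mdm2 window holds 1 decamer that begins 186 bases before the annotated start, and the Gadd45a window holds 1 that begins 40 bases before it. The Cdkn1a window holds 2, which begin 73 and 51 bases before the start. The latter is directly followed by tgacatgttc, which departs from the consensus only in its opening base and was not counted. The windows of Plk2 and Dcxr, which rose about as far as Gadd45a, hold no exact match, and neither does the window at the downstream start of Cdkn1a. The RefSeq table has windows for 26 of the 33 genes, and Zmat3, Trp53inp1, Tnfrsf10b, Perp, Ddb2, Xpc and Rrm2b have no entry. Of the 34 windows of members, 14 hold a decamer (41.2%), against 2745 of all 32851 windows in the table (8.36%). The members were picked largely as known p53 targets, so a higher share was built into the choice and does not describe the response. Windows with a decamer belong to genes that rose, such as Mdm2, to Pml, which fell, and to genes not called, such as Rap2b and Sesn1. A pair of decamers no more than 13 bases apart was found in 1 window of a member, that of Cdkn1a, and in 24 windows in all (0.0731%). A match is a description of these letters and not a binding site, and windows of 300 bases leave out introns and distal sequence.

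With H2O2 alone, the p53 pathway genes stood mostly higher than with vehicle. edgeR's quasi-likelihood test, with p adjusted over all 14838 genes by the Benjamini-Hochberg method and a threshold of 0.05, called 20 of 32 members, where 15.7% of all genes were called. Of these, 19 rose, or 59.4%, where 7.81% of all genes tested rose, and 1 fell, where 7.84% of all genes fell. At an unadjusted p under 0.05 there were 22 members, where 29.8% of all genes were. The median log2 fold change of the 32 genes was 0.75, against -0.06 for all genes. The set was chosen with earlier results of these data known, so these shares describe it and do not test it. Without overlap of the groups, 22 members were higher in each H2O2 library than in each vehicle library, where 15.9% of all genes were, and 1 member was lower, where 15.2% were. The largest rises were those of Mdm2 (4.30-fold), Gadd45a (4.01-fold), Plk2 (3.59-fold) and Dcxr (3.52-fold).

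**Figure D1:**
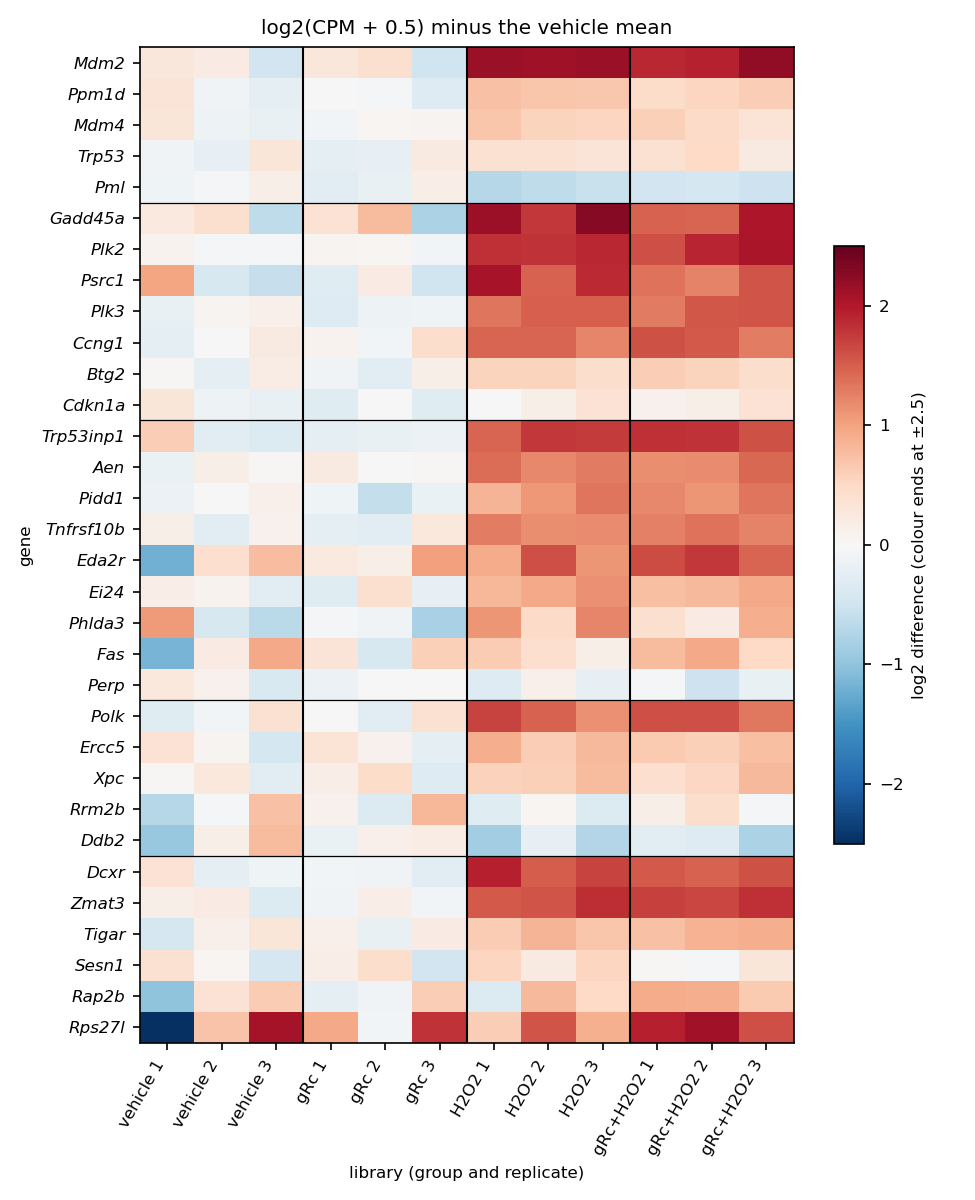
Level of the 32 tested p53 pathway genes (rows, in groups by role: p53 and regulators, arrest, death, repair, metabolism and other) in the 12 libraries (columns), as log2(CPM + 0.5) minus the vehicle mean, with colour ending at ±2.5. The 6 columns with H2O2 are red for most genes and alike with and without gRc, Pml is blue in them, and Rps27l, Eda2r, Phlda3 and Fas vary widely among the vehicle columns.

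Among p53 and its regulators, 3 genes rose with H2O2, Pml fell, and Trp53 itself did not pass the test. Mdm2, whose product marks p53 for degradation, lies on chromosome 10 of GRCm38 from 117688875 to 117710758. It stood at 188, 180.2 and 111 CPM in vehicle replicates 1, 2 and 3 and at 692, 673 and 692 CPM in the H2O2 replicates. The 3 vehicle libraries were spread while the 3 H2O2 libraries lay close together, with a wide gap between the groups. The rise was 4.30-fold, or 2.10 in log2 units (SE 0.26, adjusted p = 0.000607), and each SE here comes from dividing the absolute log2 value by the root of the F statistic of edgeR. Mdm4, whose product binds p53 and blocks its activation domain, stood at 68.2 to 95.2 CPM with vehicle and at 113 to 126 CPM with H2O2 (0.59, SE 0.15, adjusted p = 0.0200). Ppm1d, which encodes the phosphatase WIP1 that reverses damage signalling to p53, stood at 17.1 to 25.0 CPM and at 32.1 to 33.5 CPM (0.69, SE 0.16, adjusted p = 0.0138). In these genes that restrain p53, each H2O2 library lay above each vehicle library in CPM. In TPM this did not hold for Ppm1d, at 21.3, 10.8 and 8.99 with vehicle and 25.2, 17.7 and 18.5 with H2O2.

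The rises of Mdm4 and Ppm1d were close to the threshold. Mdm4 missed it without any of vehicle 2, vehicle 3, H2O2 1, H2O2 2 and H2O2 3 (adjusted p from 0.0512 to 0.0825), and Ppm1d without vehicle 3, H2O2 1 or H2O2 3 (adjusted p from 0.0529 to 0.0553). Mdm4 also missed it with the GC correction, alone or with a replicate block, with no filter on low counts and in the fit of only the compared groups (adjusted p up to 0.125). Trp53, on chromosome 11 from 69580359 to 69591873, stood at 74.4, 68.9 and 97.4 CPM with vehicle and at 104, 104 and 99.4 CPM with H2O2. All H2O2 libraries were above all vehicle libraries, the nearest pair being 97.4 and 99.4 CPM, and the log2 fold change of 0.35 (95% interval -0.03 to 0.72, adjusted p = 0.199) did not pass. Per transcript length the Trp53 groups overlapped, at 115.49, 81.45 and 87.2 TPM with vehicle and 112.11, 103.59 and 118.91 TPM with H2O2. Pml, which encodes the scaffold of the nuclear bodies where p53 is modified, went the other way. It stood at 38.2, 39.6 and 45.6 CPM with vehicle and at 24.8, 26.2 and 27.8 CPM with H2O2. The groups did not overlap, and Pml fell by 0.65 in log2 units (SE 0.14, adjusted p = 0.0118). Of 25 alternatives it missed the threshold in 1, the fit of only vehicle and H2O2 libraries (adjusted p = 0.0645).

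**Figure D2:**
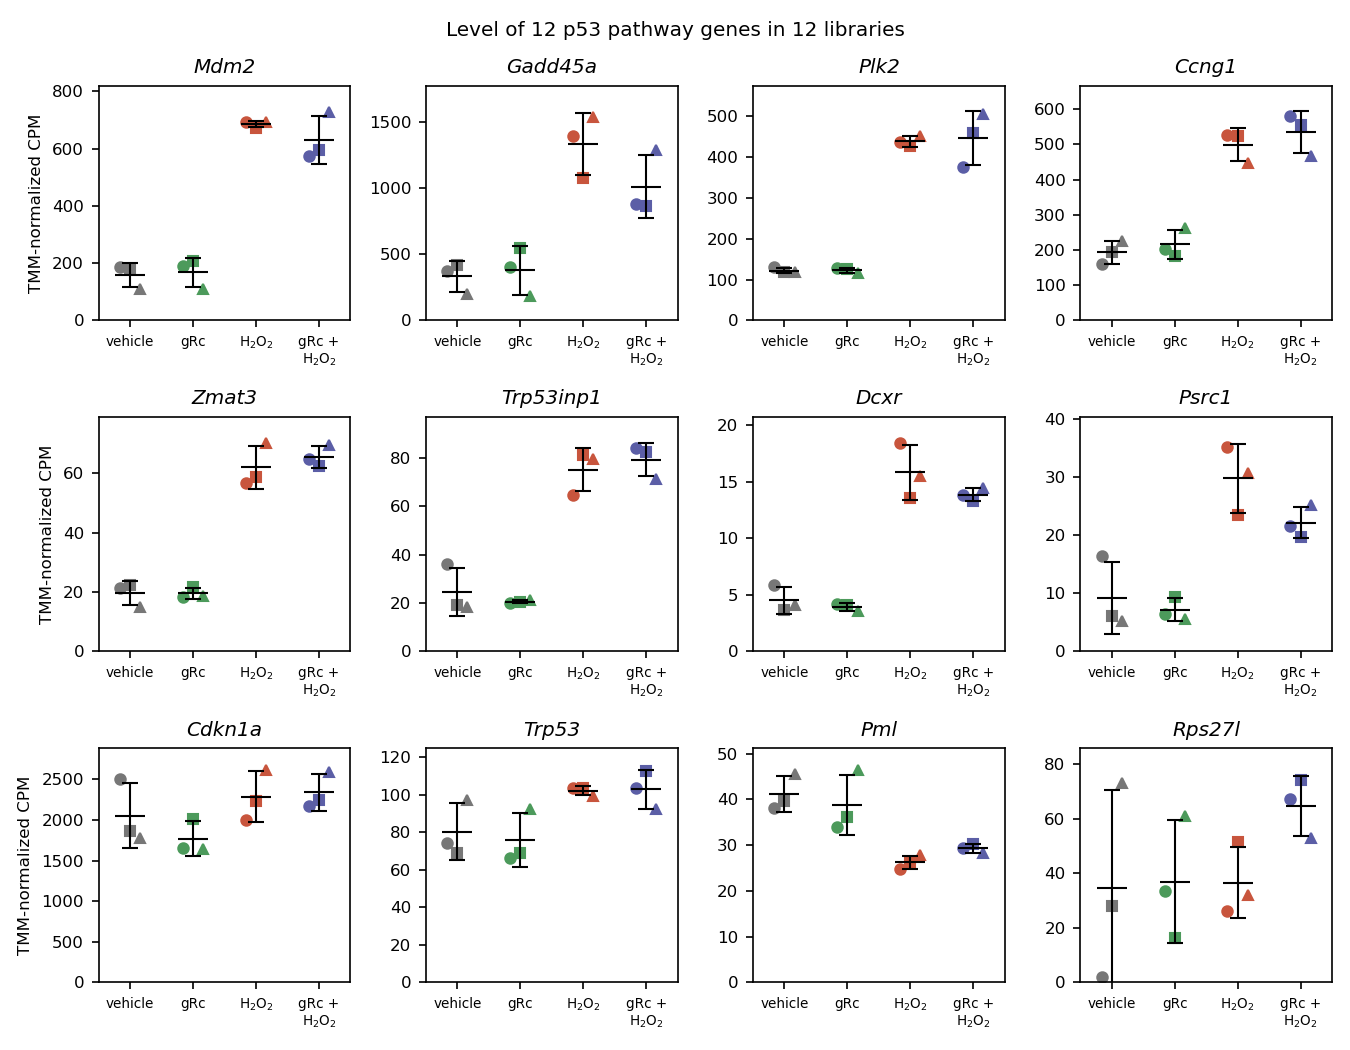
TMM-normalized CPM (linear axes from 0) of 12 of the 33 genes in the 4 groups, with 1 point per library (circle, square and triangle for replicates 1, 2 and 3), a long bar at the mean and error bars of 1 SD (n = 3). Mdm2, Plk2, Ccng1 and Zmat3 form a low pair of groups without H2O2 and a high pair with it, Cdkn1a and Trp53 shift little, Pml is lower with H2O2, and Rps27l spans 2.05 to 73.3 CPM among vehicle libraries alone.

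Of the 7 arrest genes 6 rose with H2O2, and the exception was Cdkn1a. Gadd45a, on chromosome 6 from 67035096 to 67037457, stood at 376, 421 and 204 CPM with vehicle and at 1398, 1078 and 1539 CPM with H2O2 (2.00, SE 0.39, adjusted p = 0.00688). The lowest H2O2 library, at 1078 CPM, was far above the highest vehicle library, though both groups were spread. Gadd45a overlaps a gene on the opposite strand, as do Mdm4, Pml, Plk3, Ei24, Ddb2, Polk, Tigar, Rap2b and Trp73, and how the counting treated strand is not given in the sources used here, so their counts are uncertain to that extent. Plk2, a polo-like kinase of the G1 phase on chromosome 13 from 110395046 to 110400844, was the most uniform of the large responders. It stood at 131, 119 and 118 CPM with vehicle and at 436, 427 and 453 CPM with H2O2 (1.84, SE 0.14, adjusted p = 3.68e-05). Plk3, a related stress kinase, stood at 14.1, 16.9 and 17.7 CPM and at 41.3, 46.7 and 46.5 CPM (1.46, SE 0.14, adjusted p = 0.000159). Ccng1, which encodes cyclin G1, a partner of the phosphatase PP2A in the regulation of MDM2, stood at 161, 194 and 225 CPM and at 528, 524 and 447 CPM (1.37, SE 0.18, adjusted p = 0.000943). In all 3 genes the groups lay far apart relative to their spread.

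Psrc1, a microtubule-associated gene that p53 is known to regulate, was less uniform. It stood at 16.4 CPM in vehicle replicate 1 and at 6.02 and 5.21 CPM in replicates 2 and 3, against 35.1, 23.4 and 30.6 CPM with H2O2. Its log2 fold change of 1.70 (SE 0.39, adjusted p = 0.0142) missed the threshold without vehicle 2, H2O2 1 or H2O2 3 (adjusted p from 0.0501 to 0.0554). Btg2, an antiproliferative cofactor of mRNA decay, moved least among the arrest genes that rose, from 20.3 to 27.3 CPM with vehicle to between 32.3 and 35.1 CPM with H2O2 (0.51, SE 0.15, adjusted p = 0.0415). It missed the threshold in 8 of the 12 fits that left out 1 library, those without vehicle 2, gRc 1 or any library with H2O2 (adjusted p from 0.0596 to 0.120).

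Cdkn1a encodes p21, the cyclin-dependent kinase inhibitor through which p53 halts the cell cycle, and lies on chromosome 17 from 29090976 to 29100727. It stood at 2512, 1867 and 1778 CPM with vehicle and at 2001, 2238 and 2621 CPM with H2O2. The groups overlapped, with vehicle replicate 1 above all but 1 of the H2O2 libraries, and the log2 fold change was 0.16 (95% interval -0.26 to 0.57, adjusted p = 0.628). In 25 alternative analyses its log2 fold change lay between 0.03 and 0.32 and passed the threshold in none. The upper end of the interval lies below the lower ends for Mdm2 (1.53), Plk2 (1.53) and Gadd45a (1.14). A direct test of Cdkn1a against these genes was not made.

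Of the 9 cell death genes, 5 rose with H2O2 and the other 4 did not pass. Trp53inp1, which encodes a stress protein of p53-dependent apoptosis and autophagy, stood at 36.1, 19.3 and 18.3 CPM with vehicle and at 64.7, 81.0 and 79.3 CPM with H2O2 (1.61, SE 0.24, adjusted p = 0.00152). Vehicle replicate 1 was again the highest of its group, and the groups did not overlap. Aen, an apoptosis-enhancing nuclease, stood at 63.1, 79.0 and 72.5 CPM and at 188, 165 and 176 CPM, a 2.47-fold rise (SE 0.14 in log2 units, adjusted p = 0.000243). Tnfrsf10b, the mouse death receptor for TRAIL, stood at 21.7, 16.3 and 21.3 CPM and at 48.5, 44.8 and 45.1 CPM (1.22, SE 0.17, adjusted p = 0.00130). Both were tight in the H2O2 group and clear of vehicle. Pidd1, which encodes the scaffold that activates caspase 2, was low, at 2.72, 3.08 and 3.35 CPM and at 5.87, 7.02 and 8.48 CPM (1.22, SE 0.21, adjusted p = 0.00352), and these values rest on 49 to 94 counts per vehicle library and 126 to 207 per H2O2 library. Ei24, an endoplasmic reticulum protein of apoptosis and autophagy, went from between 66.9 and 90.5 CPM to between 144 and 178 CPM (0.98, SE 0.20, adjusted p = 0.00763). None of these 5 genes overlapped between the groups.

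The death genes that did not pass also had the largest ratios of highest to lowest vehicle library among the death genes. The ratio of Perp, 2.04, was just above that of Trp53inp1, 1.97, which was called. Whether this spread kept them from passing was not tested. Eda2r, the receptor for ectodysplasin A2, stood at 36.1, 111 and 143 CPM with vehicle and at 159, 257 and 179 CPM with H2O2, which are higher in each library (1.03, 95% interval 0.10 to 1.96, adjusted p = 0.127). Phlda3 stood at 463, 168 and 138 CPM with vehicle and at 474, 308 and 516 CPM with H2O2 (0.75, SE 0.43, adjusted p = 0.268). Vehicle replicate 1 lay at opposite ends in this pair, lowest for Eda2r and highest for Phlda3. Without it, Phlda3 passed the test at a log2 fold change of 1.49 (adjusted p = 0.0106). Fas, the death receptor gene, stood at 1.28, 4.05 and 7.13 CPM with vehicle and at 3.89 to 5.59 CPM with H2O2 (0.18, SE 0.48, adjusted p = 0.843), and turned to -0.24 without vehicle replicate 1. Perp stood at or below 1.16 CPM in all 12 libraries (-0.21, SE 0.35, adjusted p = 0.735).

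Of the 5 repair genes 2 rose. Polk, which encodes a polymerase that copies past damaged bases, stood at 9.15, 10.8 and 14.9 CPM with vehicle and at 37.8, 32.5 and 25.9 CPM with H2O2 (1.46, SE 0.23, adjusted p = 0.00246). Ercc5, which encodes the XPG endonuclease of nucleotide excision repair, went from between 26.3 and 46.3 CPM to between 55.0 and 67.3 CPM (0.76, SE 0.21, adjusted p = 0.0327). Both were higher in each H2O2 library, and the call of Ercc5 was lost in 8 of 12 fits without 1 library, those without vehicle 2, vehicle 3, gRc 2, any H2O2 library, gRc + H2O2 1 or gRc + H2O2 2 (adjusted p from 0.0520 to 0.118). The damage sensor Xpc stood higher in each H2O2 library too, at 45.2 to 52.6 CPM against 24.7 to 36.1 CPM, and missed the threshold (0.65, SE 0.21, adjusted p = 0.0613), which it passed without gRc replicate 3 (adjusted p = 0.0270).

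Ddb2 and Rrm2b did not stand higher. Ddb2, the other damage sensor of nucleotide excision repair, stood at 0.943, 2.56 and 4.32 CPM with vehicle and at 1.03, 1.90 and 1.16 CPM with H2O2 (-0.94, SE 0.46, adjusted p = 0.198), and without vehicle replicate 1 it passed the test at -1.33 (adjusted p = 0.0213). Its values rest on 17 to 121 counts per vehicle library, and the gene Acp2 overlaps it on the opposite strand. Rrm2b, the p53-inducible subunit of ribonucleotide reductase, stood at 10.6, 17.3 and 29.9 CPM with vehicle and at 13.8 to 18.3 CPM with H2O2 (-0.32, SE 0.37, adjusted p = 0.611), and turned to 0.13 without vehicle replicate 3.

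Of the 6 genes of metabolism and other functions 3 rose. Dcxr, a carbonyl and xylulose reductase on chromosome 11 from 120725399 to 120727281, stood at 5.82, 3.63 and 4.07 CPM with vehicle and at 18.4, 13.6 and 15.5 CPM with H2O2 (1.82, SE 0.20, adjusted p = 0.000289). These are low levels that still rest on 105 to 114 counts per vehicle library and 374 to 400 per H2O2 library. Zmat3, an RNA-binding regulator of splicing and a p53 target, on chromosome 3 from 32334792 to 32366014, stood at 21.5, 22.3 and 15.1 CPM and at 56.9, 58.8 and 70.4 CPM (1.66, SE 0.17, adjusted p = 0.000199). Tigar, a fructose bisphosphatase that turns glucose towards NADPH, stood at 5.21, 7.88 and 8.92 CPM and at 11.5, 13.4 and 11.9 CPM (0.74, SE 0.20, adjusted p = 0.0309). No library overlapped for these 3, and Tigar alone missed the threshold without 1 library, namely vehicle 2, any H2O2 library or gRc + H2O2 2 (adjusted p from 0.0518 to 0.107).

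The other 3 genes of this class did not pass. Sesn1, a sestrin that restrains mTORC1, stood at 60.6, 48.3 and 34.5 CPM with vehicle and at 67.7, 54.3 and 67.8 CPM with H2O2 (0.40, SE 0.25, adjusted p = 0.317). Rap2b, a small GTPase, stood at 8.32, 22.3 and 27.0 CPM and at 13.5, 30.6 and 24.5 CPM (0.25, SE 0.41, adjusted p = 0.734). Rps27l, a p53-induced relative of the ribosomal protein gene Rps27, stood at 2.05, 28.1 and 73.3 CPM with vehicle and at 26.3, 51.5 and 32.1 CPM with H2O2 (0.08, SE 0.83, adjusted p = 0.963). The vehicle libraries of Rps27l alone spanned more than the H2O2 response of any other member, and it shares sequence with Rps27, so reads may have been divided between them by the counting.

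The spread of members within a group was uneven. In vehicle libraries 10 of the 32 tested genes (31.2%) differed by more than 2-fold between the lowest and the highest library, where 40.0% of all genes did. The count was 4 with gRc, 1 with H2O2 and 0 with gRc + H2O2, and the share of all genes was lower in these groups too, at 25.8%, 10.9% and 7.39%. The lowest vehicle library was replicate 1 for 13 members, replicate 2 for 4 and replicate 3 for 15. Of the 10 genes over 2-fold in vehicle, Rps27l, Eda2r, Fas, Rap2b, Rrm2b and Ddb2 were lowest in vehicle replicate 1 and highest in replicate 3. These vehicle libraries lay farthest apart in GC. Psrc1, Perp and Phlda3 ran the other way, and Gadd45a was lowest in replicate 3 and highest in replicate 2. Members with a smaller spread ran in both directions too, such as Polk and Tigar the former way and Mdm2 and Cdkn1a the latter. With a correction for GC content, 19 members and 2594 of all 14838 genes passed with H2O2, and 21 members and 2290 of all genes did without vehicle replicates 1 and 3 and gRc replicate 3, which left a single vehicle library that is assumed to vary like the other groups.

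The same comparison was available a second time in libraries that received gRc first. gRc + H2O2 against gRc uses the other 6 libraries, and the fit shares its estimate of the spread with H2O2 against vehicle but no library. Of the 32 genes, 17 were called, where 15.7% of all genes were. All 17 rose (53.1% of the 32), where 7.57% of all genes did, and 0 fell, where 8.15% of all genes did. At an unadjusted p under 0.05 there were 23 members, where 28.2% of all genes were. These 17 were among the 20 called without gRc, which is 85% of the first list and 100% of the second. The overlap of calls among all genes was not counted, so whether this overlap is larger than theirs is not known. The genes called only without gRc were Ercc5, Mdm4 and Pml, with log2 fold changes of 0.59, 0.47 and -0.40 and adjusted p of 0.0844, 0.0526 and 0.0822 in the libraries with gRc. All 32 genes had the same sign in both comparisons, where 83.3% of all genes had, although under some alternatives Fas, Rap2b, Rps27l and Sesn1 turned sign in one of them and Rrm2b in both. The groups did not overlap for 23 members that were higher (19.2% of all genes) and 2 that were lower, Pml and Ddb2 (19.5% of all genes).

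**Figure D3:**
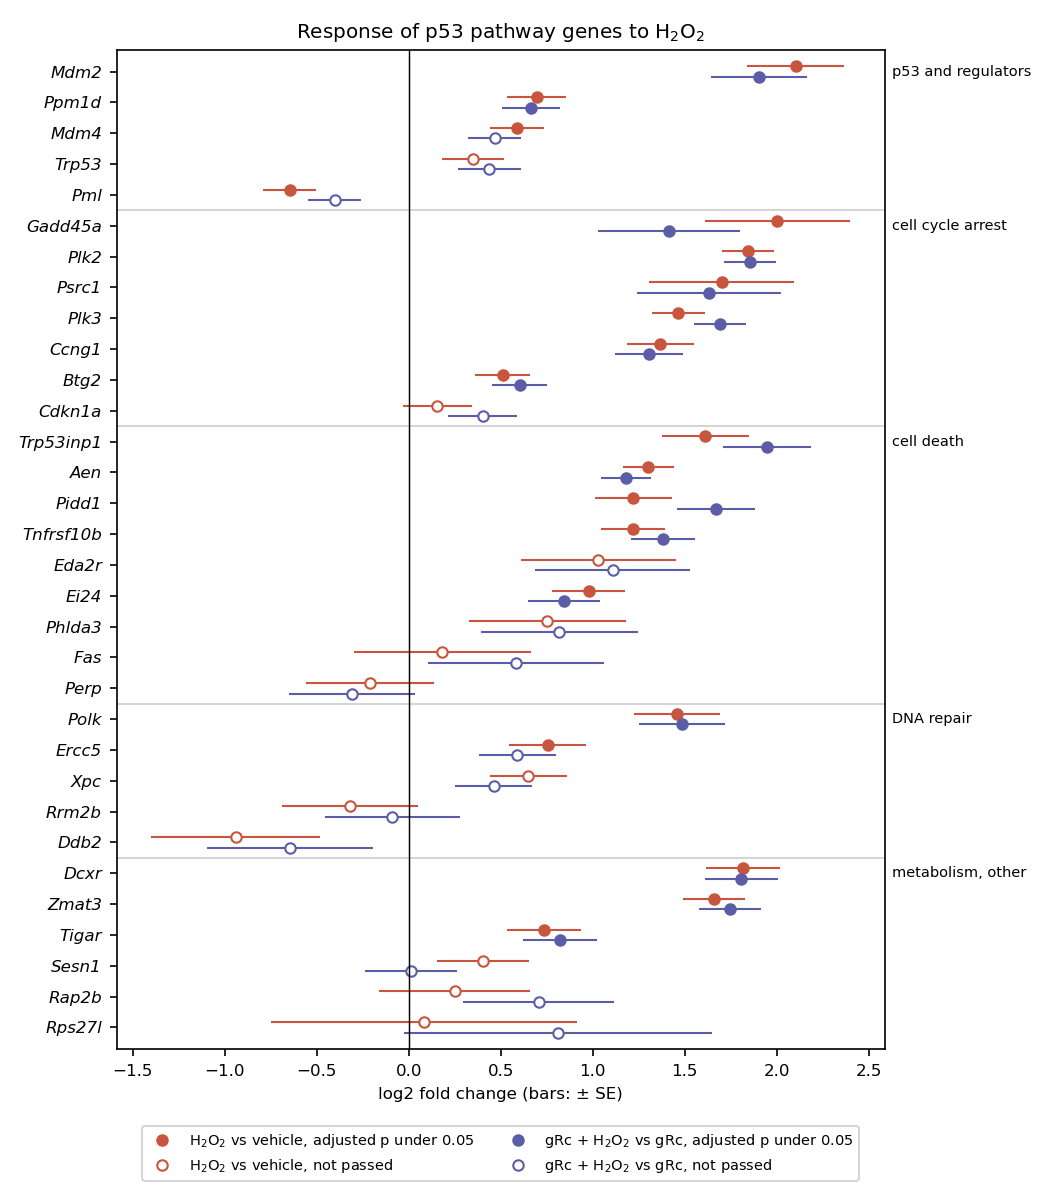
Log2 fold change (bars, ± SE) of the 32 tested genes for H2O2 against vehicle (red) and gRc + H2O2 against gRc (blue), ordered by role, with filled points where edgeR's adjusted p was under 0.05. The 17 genes with both points filled lie between 0.51 (Btg2) and 2.10 (Mdm2), and the bars of the 2 comparisons overlap or nearly do for most genes.

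The large responders were called in the libraries with gRc as well. Mdm2 stood at 189, 206 and 111 CPM with gRc and at 573, 594 and 727 CPM with gRc + H2O2 (1.90, SE 0.26, adjusted p = 0.00102). Plk2 stood at 127, 127 and 116 CPM and at 375, 458 and 506 CPM (1.85, SE 0.14, adjusted p = 3.17e-05). Neither gene overlapped between the groups. Gadd45a stood at 407, 549 and 183 CPM and at 884, 868 and 1287 CPM (1.42, SE 0.39, adjusted p = 0.0306), and missed the threshold without gRc 1, gRc 3 or any gRc + H2O2 library (adjusted p from 0.0548 to 0.110). Dcxr stood at 4.17, 4.14 and 3.53 CPM and at 13.8, 13.3 and 14.4 CPM (1.81, SE 0.20, adjusted p = 0.000286).

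The other called genes of the arrest and death groups were higher in CPM in each library with the oxidant here too. Trp53inp1 had the largest log2 fold change of the 32 genes here, 1.95 (SE 0.24, adjusted p = 0.000530), from 19.9, 20.6 and 21.1 CPM with gRc to 83.8, 82.5 and 71.4 CPM with gRc + H2O2. Its gRc libraries were the closest together of any group of this gene. Plk3 rose by 1.69 (SE 0.14, adjusted p = 6.90e-05), Pidd1 by 1.67 (SE 0.21, adjusted p = 0.000661), Tnfrsf10b by 1.38 (SE 0.17, adjusted p = 0.000613), Ccng1 by 1.31 (SE 0.18, adjusted p = 0.00115) and Aen by 1.18 (SE 0.14, adjusted p = 0.000403). Psrc1 rose by 1.63 (SE 0.39, adjusted p = 0.0175), Ei24 by 0.84 (SE 0.20, adjusted p = 0.0151) and Btg2 by 0.60 (SE 0.15, adjusted p = 0.0201). In all of these genes each gRc + H2O2 library lay above each gRc library in CPM. In TPM the groups of Ei24 overlapped, at 95.7, 163.7 and 56.4 with gRc and 156.0, 138.9 and 183.0 with gRc + H2O2. Psrc1 missed the threshold without gRc 1, gRc 3 or gRc + H2O2 3 (adjusted p from 0.0550 to 0.0679), Ei24 without gRc 1 or gRc + H2O2 3 (0.0592 and 0.0638), and Btg2 without gRc 1, gRc 2, gRc + H2O2 1 or gRc + H2O2 2 (0.0689 to 0.0792).

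Outside these groups, Zmat3 rose by 1.75 (SE 0.17, adjusted p = 0.000147), Polk by 1.49 (SE 0.23, adjusted p = 0.00212), Tigar by 0.82 (SE 0.20, adjusted p = 0.0190) and Ppm1d by 0.66 (SE 0.16, adjusted p = 0.0171). Tigar missed the threshold without gRc 1, gRc 2, gRc + H2O2 2 or gRc + H2O2 3 (adjusted p from 0.0535 to 0.0674), and Ppm1d without gRc + H2O2 2 or gRc + H2O2 3 (0.0592 and 0.0655). Cdkn1a stood at 1651, 2015 and 1648 CPM with gRc and at 2175, 2247 and 2598 CPM with gRc + H2O2. Here its groups did not overlap, and the log2 fold change of 0.40 (95% interval -0.01 to 0.82, adjusted p = 0.193) did not pass. In 25 alternatives it lay between 0.03 and 0.50 and passed in none, and per transcript length the groups overlapped, at 2451, 2964 and 1493 TPM with gRc and 2041, 1996 and 2840 TPM with gRc + H2O2. Trp53 stood at 66.5, 68.7 and 92.6 CPM and at 103, 113 and 92.3 CPM (0.44, SE 0.17, adjusted p = 0.116), with gRc replicate 3 the library that made the groups overlap, and without it the gene passed at 0.60 (adjusted p = 0.0381). Without vehicle replicate 1 Eda2r passed in this comparison (adjusted p = 0.0118), and without vehicle replicate 1 or 3 Mdm4 (0.0103 and 0.0458) and Ercc5 (0.0412 and 0.0436) did, although no vehicle library is among those compared, since the spread is shared.

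Most of the larger rises kept their call across 25 alternatives, all of them refits of the same 12 libraries. The share of all genes that kept a call throughout was not counted. Aen, Ccng1, Dcxr, Mdm2, Pidd1, Plk2, Plk3, Polk, Tnfrsf10b, Trp53inp1 and Zmat3, 11 in all, passed in both H2O2 comparisons under all 25 alternatives, and Gadd45a did so without gRc only. Over those alternatives the log2 fold change of Plk2 against vehicle lay between 1.74 and 1.89 and that of Mdm2 between 1.88 and 2.33. Ppm1d, Btg2, Psrc1, Ei24 and Ercc5 lost the call against vehicle with offsets from the effective length of transcripts and with limma on TPM, both of which allow for transcript length differing between libraries, and with gRc + H2O2 against gRc the same held for Ppm1d, Btg2, Psrc1, Ei24 and Tigar. In the fit of only vehicle and H2O2 libraries Mdm4, Ppm1d, Pml, Btg2, Psrc1, Ercc5 and Tigar lost the call. Ercc5 also lost it with the GC correction, Btg2 and Tigar with upper-quartile factors, Btg2, Ercc5 and Tigar with no filter, and Tigar with vehicle replicates 1 and 3 and gRc replicate 3 left out. With gRc + H2O2 against gRc, Gadd45a lost it by limma and in the fit of only those groups, and Btg2 with no filter.

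The question the study put to gRc is whether pretreatment changes the response to H2O2, and for the p53 genes no difference passed the test. With gRc + H2O2 against H2O2, 0 of 32 members and 0 of 14838 genes had an adjusted p under 0.05 in edgeR (0% of all genes), and 0 members had an unadjusted p under 0.05, where 122 of all genes (0.822%) had. DESeq2 called 2 genes of all and 0 members. Log2 fold changes of the members ran from -0.43 for Phlda3 to 0.82 for Rps27l, with a median of 0.03 against -2.90e-05 for all genes, and 19 of the 32 were above 0. The smallest p was that of Sesn1, which stood at 67.7, 54.3 and 67.8 CPM with H2O2 and at 47.5, 45.2 and 57.4 CPM with gRc + H2O2 (-0.34, SE 0.25, unadjusted p = 0.203, adjusted p = 0.922 from edgeR). Pml followed at 0.16 (SE 0.14, unadjusted p = 0.285 from edgeR) and Psrc1 at -0.43 (SE 0.38, unadjusted p = 0.287 from edgeR).

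**Figure D4:**
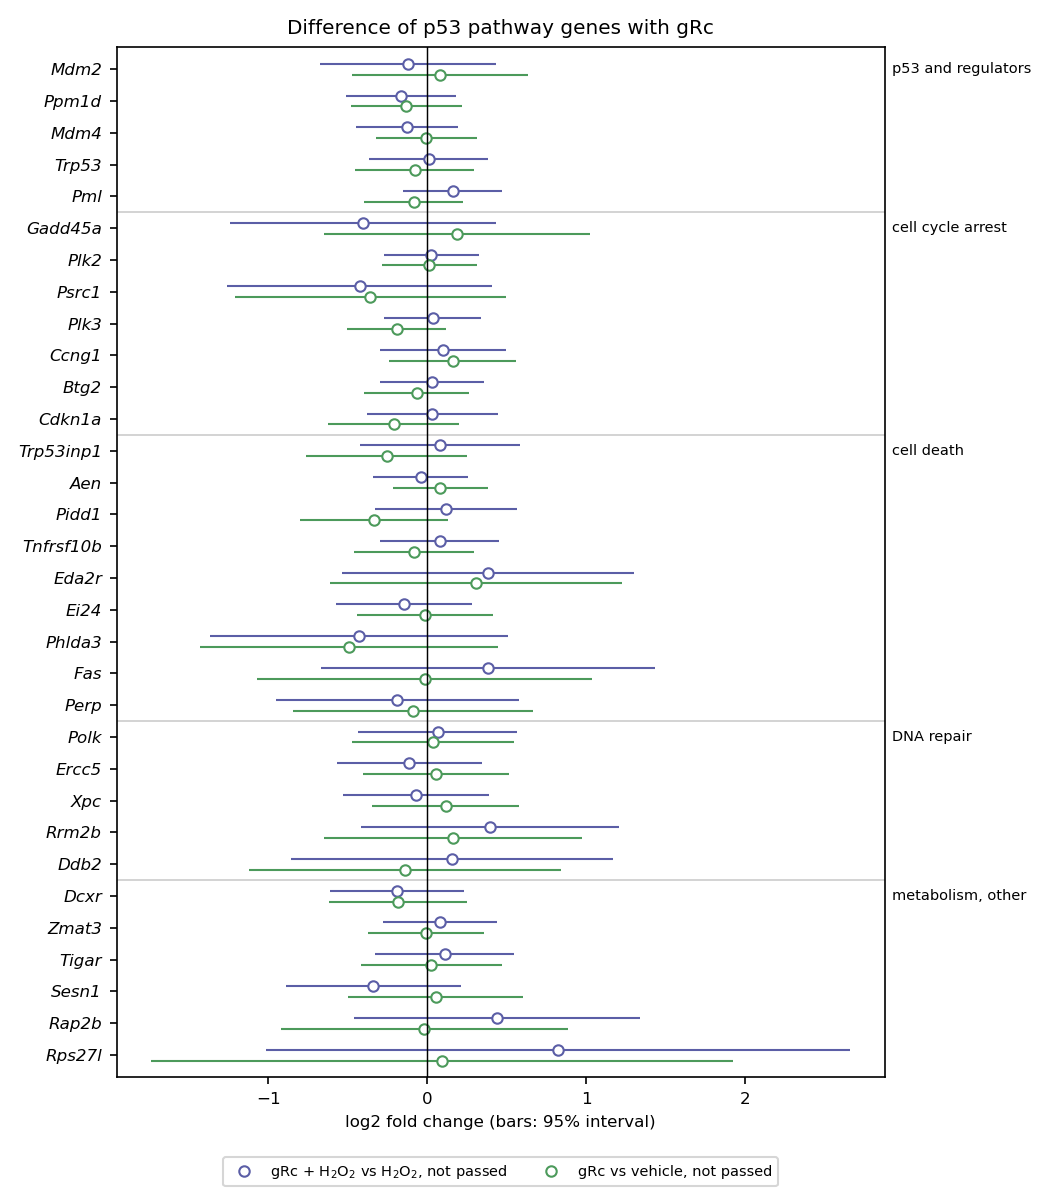
Log2 fold change with its 95% interval (bars) of the 32 tested genes for gRc + H2O2 against H2O2 (blue) and gRc against vehicle (green), ordered by role. All points are open, since no gene passed the test, all bars cross 0, and Rps27l has the widest bars.

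A missed threshold does not show that the groups were equal, and the intervals bound the difference. For 23 of the 32 members the 95% interval lay within 1 log2 unit of 0, and for 11 it lay within 0.5. The interval of Plk2 ran from -0.27 to 0.32, that of Aen from -0.34 to 0.26, that of Plk3 from -0.27 to 0.34 and that of Mdm2 from -0.67 to 0.43, all of them short of the rises these genes showed with H2O2. For Gadd45a it ran from -1.24 to 0.44 and for Rps27l from -1.02 to 2.66, so these intervals take in a change of 1 log2 unit. Cdkn1a differed by 0.03 (95% interval -0.38 to 0.45), and the sign turned, to -0.47 with effective-length offsets and -0.41 with limma on TPM, neither of which passed. Groups did not overlap for Pml and Rps27l, which were higher with gRc + H2O2 (7.69% of all genes), and for Ppm1d, which was lower (7.62%).

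Rps27l and Pml show these differences by library. Rps27l stood at 26.3, 51.5 and 32.1 CPM with H2O2 and at 67.4, 74.2 and 52.8 CPM with gRc + H2O2. The nearest pair, 51.5 and 52.8 CPM, almost touched, and the difference was under its SE (0.82, SE 0.84, adjusted p = 0.922). Pml stood at 24.8, 26.2 and 27.8 CPM and at 29.4, 30.3 and 28.3 CPM, again with a narrow gap. The log2 level of GC-poor against GC-rich genes was -0.30, 0.22 and -0.35 in H2O2 replicates 1, 2 and 3. In the gRc + H2O2 replicates it was 0.33, 0.42 and -0.18. The GC content was 40.5% for Rps27l and 56.3% for Pml. The part of GC in these differences was not tested.

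gRc alone left the members close to vehicle. edgeR called 0 members and 0 genes (0%), 0 members had an unadjusted p under 0.05, where 74 of all genes (0.499%) had, and DESeq2 called 0 members. The groups overlapped for each of the 32 members, where 0.869% of all genes were higher and 0.741% lower without overlap. The smallest p were those of Pidd1 (-0.33, SE 0.21, unadjusted p = 0.144), Plk3 (-0.19, SE 0.14, unadjusted p = 0.198) and Phlda3 (-0.49, SE 0.43, unadjusted p = 0.272), all from edgeR. Pidd1 stood at 2.72, 3.08 and 3.35 CPM with vehicle and at 2.77, 1.83 and 2.67 CPM with gRc. Phlda3 followed vehicle replicate 1, at 463 CPM, and without that library its log2 fold change turned to 0.25. The members' median was -0.01, and 25 of 32 intervals lay within 1 log2 unit of 0.

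The difference between the H2O2 responses with and without gRc was tested as an interaction, which called 0 members and 0 genes (0%) in edgeR, with 0 members and 87 genes (0.586%) at an unadjusted p under 0.05. DESeq2 called 1 gene of all and 0 members. Pidd1 had the smallest p, with an H2O2 response 0.45 larger on the log2 scale with gRc (SE 0.29, 95% interval -0.20 to 1.10, unadjusted p = 0.153), followed by Pml (0.24, SE 0.20, unadjusted p = 0.250) and Plk3 (0.23, SE 0.20, unadjusted p = 0.276), all from edgeR. The interval for Mdm2 ran from -0.98 to 0.59 and that for Gadd45a from -1.77 to 0.60. For 19 of the 32 genes the interval lay within 1 log2 unit of 0, and for 1 within 0.5.

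Genes around the members were read from 5 lists, each described by its counts and its median beside that of all genes (-0.06) for H2O2 against vehicle. Of all genes tested, 7.81% rose and 7.84% fell in this comparison. Of 21 DNA damage kinases and mediators upstream of p53, 0 rose and 1 fell, with a median of 0.06. The one that fell was Prkdc, which encodes the catalytic subunit of DNA-dependent protein kinase, from between 19.3 and 21.3 CPM to between 8.03 and 10.3 CPM (-1.13, SE 0.14, adjusted p = 0.000673). Of 26 tested p53 modifiers and cofactors, 4 rose and 2 fell, with a median of 0.27. Those with the smallest p were the acetyltransferase Kat2b (-1.13, SE 0.14, adjusted p = 0.000459), the p53 relative Trp63 (-2.30, SE 0.43, adjusted p = 0.00560) and Trp53bp2 (0.64, SE 0.14, adjusted p = 0.0120), which encodes ASPP2, a cofactor of p53 at apoptotic genes. Cdkn2a, whose ARF product blocks MDM2, was at 0 in all 12 libraries.

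Of 15 tested apoptotic p53 targets outside the 33 genes, 3 rose and 0 fell, with a median of 0.22. Apaf1, the core of the apoptosome, stood at 13.9 to 21.1 CPM with vehicle and at 30.1 to 34.7 CPM with H2O2 (0.97, SE 0.16, adjusted p = 0.00278). Bbc3, which encodes PUMA, went from between 8.27 and 19.2 CPM to between 33.7 and 53.4 CPM, a 2.82-fold rise (SE 0.36 in log2 units, adjusted p = 0.0184), and Bid from between 44.1 and 49.9 CPM to between 59.6 and 67.7 CPM (0.41, SE 0.12, adjusted p = 0.0461). Bax (0.89, SE 0.40, adjusted p = 0.165) and Pmaip1, which encodes NOXA (0.42, SE 0.30, adjusted p = 0.385), did not pass and are named after their values were seen. Of 44 other p53 targets tested, 15 rose and 1 fell, where 7.81% and 7.84% of all genes did, with a median of 0.29. The smallest p were those of Gdf15 (4.33, SE 0.15, adjusted p = 2.03e-07), a secreted stress signal, Sesn2 (2.59, SE 0.25, adjusted p = 0.000159), a sestrin like Sesn1, and the ephrin receptor Epha2 (1.24, SE 0.14, adjusted p = 0.000288). The gene that fell was Thbs1, which encodes the matrix protein thrombospondin 1 (-0.68, SE 0.19, adjusted p = 0.0314).

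**Figure D5:**
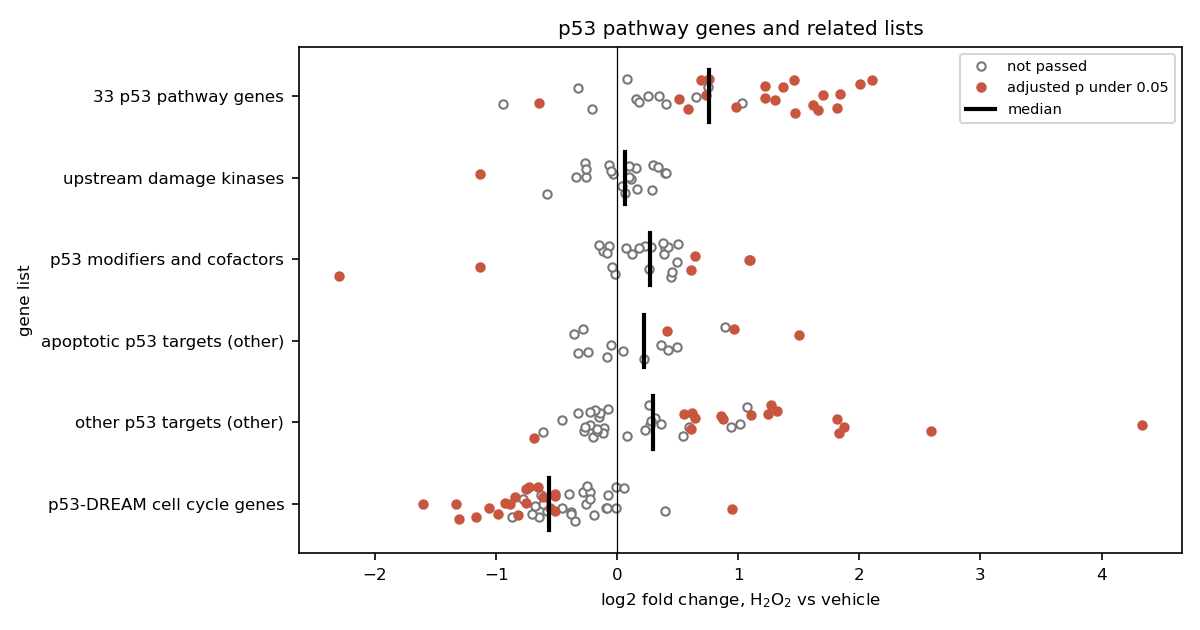
Log2 fold change with H2O2 against vehicle of each tested gene (points, filled where edgeR's adjusted p was under 0.05) in the 33-gene set (32 tested) and 5 related lists, with the median of each as a bar. The 33-gene set has the highest median, 0.75, and the cell cycle genes the lowest, -0.56. The set and the lists were chosen with earlier results of these data known, so this order is a description only.

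The 46 cell cycle genes that p53 is known to repress through p21 and the DREAM complex moved the other way, with 1 gene up and 19 down and a median of -0.56. Of all genes, 7.81% went up and 7.84% down. Ccne1, which encodes cyclin E1, stood at 7.54 to 11.2 CPM with vehicle and at 2.98 to 3.45 CPM with H2O2 (-1.60, SE 0.18, adjusted p = 0.000333). Tk1, the thymidine kinase of S phase, changed by -1.33 (SE 0.19, adjusted p = 0.00151) and Ccna2, which encodes cyclin A2, by -0.85 (SE 0.14, adjusted p = 0.00337). Mcm7, a subunit of the replicative helicase, was the gene that rose (0.95, SE 0.16, adjusted p = 0.00352). The fall stood beside a log2 fold change of 0.16 for Cdkn1a that did not pass. With gRc + H2O2 against gRc, 18 of the 46 genes fell and 1 rose, where 8.15% and 7.57% of all genes did. With gRc + H2O2 against H2O2, 0 of 46 passed, where 0% of all genes did, with a median of 0.01.

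A few markers of cell type passed with H2O2, where 7.81% of all genes rose and 7.84% fell against vehicle. Of the 12 myotube markers 0 passed against vehicle, and Ttn and Myh8 fell with gRc + H2O2 against gRc. Of the 6 myoblast markers, Pax7 (-1.27, SE 0.22, adjusted p = 0.00352), Hey1 (-0.74, SE 0.22, adjusted p = 0.0417) and Myod1 (-0.51, SE 0.16, adjusted p = 0.0493) fell with H2O2, and Pax7 and Hey1 also fell with gRc + H2O2 against gRc. Of 7 tested fibroblast-like markers 0 passed in either comparison. The median log2 fold change against vehicle was -0.33 for myotube, -0.63 for myoblast and -0.62 for fibroblast-like markers, and -0.06 for all genes. With gRc + H2O2 against gRc these medians were -0.29, -0.54 and -0.83, and -0.04 for all genes. Against vehicle 3 myotube markers lay above 0, and 0 of the myoblast and fibroblast-like markers did. The summed myoblast markers ranged from 1832 to 3407 CPM with vehicle and from 1739 to 2209 CPM with H2O2, so the groups overlapped, and none of these 6 genes was at 0 in a whole group. Most of this sum was Itga7, at 1163 to 2479 CPM with vehicle and 1222 to 1592 CPM with H2O2. The part of cell composition in the p53 genes' values was not tested.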

How the data were processed

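Poly(A) RNA of 12 C2C12 libraries was sequenced as 100-base paired ends from a directional kit. Per the methods and the submitters' processing notes, the authors checked reads with FastQC, trimmed them with Trim Galore, aligned them with STAR 2.7.3a to GRCm38 and quantified genes with RSEM 1.3.3. The authors deposited per gene and library the expected count (fragments assigned by RSEM, not normalized), TPM (abundance per length, scaled within a library), FPKM, which was not used, and an effective length in bases, which served as an offset. How the counting treated strand is not given in the sources used here.

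Expected counts were rounded, edgeR's filterByExpr kept 14838 genes, and edgeR's quasi-likelihood test with TMM scaling (edgeR 4.0.16, R 4.3.3) was applied in a single fit of the 12 libraries with a mean per group, with Benjamini-Hochberg adjustment over all genes and a threshold of 0.05. The study used DESeq2, which was an alternative here (1.42.0), as was limma 3.58.1 on log2(TPM + 0.5). The biological coefficient of variation was 0.295. Other alternatives were relative log expression and upper-quartile factors, no filter, at least 10 counts in each library, a fit restricted to the compared groups, a replicate block, offsets from effective lengths, mitochondrial genes left out, a GC spline of 5 degrees of freedom per library, that spline with the block, and libraries left out. The script was tested on simulated data. Deviations from the group mean correlated between gRc and vehicle libraries of the same replicate number at 0.460, 0.271 and 0.860, over a chosen limit of 0.1 in each pair. In the other comparisons at least 1 pair was below that limit (lowest -0.283 for H2O2 and vehicle, -0.550 for gRc + H2O2 and gRc, and 0.0802 for gRc + H2O2 and H2O2). Replicate 3 of vehicle and of gRc also had GC-poor genes higher against GC-rich genes, by 0.41 and 0.51 on the log2 scale. Whether the numbers mark paired cultures was not tested.

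The 33 members, their grouping by role, the 5 related lists and the marker lists were chosen with earlier results of these data known. Each member was named, with full statistics where it passed in a comparison with H2O2, the 3 smallest p where fewer than 3 passed, and from each related list the 3 called genes of smallest p. Library totals of 19274762 to 31409066 limit precision for genes under about 1 CPM. Promoter windows came from RefSeq (GRCm38.p6) and were searched for exact matches to the p53 decamer consensus. Intervals are 95% intervals of edgeR's log2 fold changes.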

Additional observations from a re-analysis of the deposited data

How the results depend on the processing

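The count of members called with H2O2 against vehicle was 20. It was 13 in a fit of only those groups, ranged from 14 to 22 without 1 library each, and otherwise lay between 15 and 21. With gRc + H2O2 against gRc it was 17, with 11 by limma on TPM, a range from 12 to 20 without 1 library each, and 24 with vehicle replicates 1 and 3 and gRc replicate 3 left out. For all genes, H2O2 against vehicle gave 2323 calls, 668 in the fit of only those groups, 1492 by limma and from 1290 to 3123 without 1 library each, and gRc + H2O2 against gRc gave 2332, 1459 by limma, 5120 with those 3 libraries left out and from 1205 to 3267 without 1 each. DESeq2 called 2 genes for gRc + H2O2 against H2O2 and 1 for the interaction, where edgeR called 0. The fit of only gRc and gRc + H2O2 libraries gave 18 members and 2446 genes. The causes of these shifts were not tested.

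With a replicate block, 20 and 17 members passed in the H2O2 comparisons, as without it. Only between gRc and vehicle did all libraries of the same number correlate above the chosen limit, and there 0 members passed with or without the block. Whether the numbers mark paired cultures was not tested. Upper-quartile factors moved the median of all genes to -0.16 with H2O2 against vehicle, where 17 members rose and 1 fell, and 897 of all genes rose and 1607 fell, against 1159 and 1164 with TMM.

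Signs were followed for all tested members only in the H2O2 comparisons. In gRc against vehicle and the interaction they were followed for the 3 members of smallest p. With gRc + H2O2 against H2O2 they were followed for such members and for Mdm2, Cdkn1a, Plk2 and Gadd45a. The signs of other members in the gRc comparisons were not examined. Among those followed, signs turned only for members that had not passed in that comparison. Where leaving out 1 library at a time turned a sign, the log2 fold changes with H2O2 against vehicle ranged from -0.24 to 0.80 for Fas, from -0.11 to 0.56 for Rap2b, from -0.62 to 0.13 for Rrm2b and from -0.48 to 1.25 for Rps27l, with gRc + H2O2 against gRc from -0.33 to 0.30 for Rrm2b and from -0.21 to 0.21 for Sesn1, with gRc + H2O2 against H2O2 from -0.061 to 0.14 for Cdkn1a and from -0.074 to 0.14 for Plk2, and with gRc against vehicle from -0.81 to 0.25 for Phlda3. With H2O2 against vehicle, Rrm2b also turned to 0.13 with effective-length offsets and 0.0083 by limma, and Rps27l to -0.040 with upper-quartile factors and -0.067 with effective-length offsets. With gRc + H2O2 against gRc, Rrm2b was at 0.30 with the 3 libraries left out, and Sesn1 at -0.083 with upper-quartile factors, -0.0044 with no filter, -0.048 with effective-length offsets, -0.052 by limma, -0.0069 with the GC correction and -0.22 with the 3 libraries left out. With gRc + H2O2 against H2O2, Cdkn1a was at -0.47 with effective-length offsets and -0.41 by limma, and Plk2 at -0.013 with the GC correction, alone or with the block. With gRc against vehicle, Phlda3 was at 0.33 with the 3 libraries left out.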
